A study of Mus musculus with 16 samples.

Results

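Expression in mouse CD8+ T cells kept in B16F10 supernatant was compared with that in the same kind of cells kept in complete fresh medium. The comparison took 8 of the 16 libraries of the series, chosen by their medium alone: 4 of supernatant with no methionine added and 4 of fresh medium that contained methionine. Every library came from CD8+ T cells of C57BL/6 mice that had been stimulated through CD3 and CD28 for 2 days and then held in the test medium for 36 h. B16F10 is a mouse melanoma line, and a supernatant is medium in which cells have grown, so it carries what they released and lacks part of what they took up; its composition is not given in the labels. The series has 2 further media, fresh medium without methionine and the supernatant with methionine added back, each with 4 libraries. The labels name neither the donors nor the cultures behind the libraries, so the p-values below measure the spread between libraries.

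Activated CD8+ T cells take up large amounts of glucose and amino acids, and they run glycolysis, sterol synthesis and the cell cycle at a high rate while they divide. Methionine, an essential amino acid, starts protein synthesis and is the source of S-adenosylmethionine, the methyl donor for DNA, RNA and histone methylation. Shortage of an amino acid is known to act through the kinase GCN2 and the transcription factor ATF4, and through mTORC1, which follows amino acid supply.

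Sequencing depth ran from 25.8 M to 42.3 M reads per library (M, mega), averaging 32.9 M for the 4 supernatant libraries (SD 6.1) and 35.4 M for the 4 of complete fresh medium (SD 7.63). The first principal component of the 8 libraries held 90.9% of the variance and separated the media. On the second component supernatant replicate 1 lay away from the 7 others, a component that held 2.17%; without it, 10415 of the 10611 calls given below kept their direction and call. Within a medium, the median gene had a standard deviation of 0.067 in supernatant and 0.0742 in complete fresh medium on the log2 scale. Levels below are depth-normalized reads, which do not correct for gene length. Fold changes are differences of log2(depth-normalized reads + 1), supernatant minus complete fresh medium, and a gene is called at a limma adjusted p below 0.05 over all genes tested. A signed number in brackets after a gene, and the size given where a gene rose or fell, are this log2 fold change; its standard error ran from 0.025 to 0.53 over the genes named (median 0.05). The 1 added to each value makes the fold changes of genes with few reads smaller than the ratio of their levels. Of the 346 called genes named below, 342 had no overlap between the 4 libraries of each medium, and their adjusted p reached at most 0.0342 in limma. The exceptions were Bcl2, Peg3, Tbx21 and Tdrkh. The lack of overlap was a condition for naming part of these genes, and it held for 80% of all genes tested.

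Of 12472 genes tested, supernatant raised 5321 (42.7% of those tested) and lowered 5290 (42.4%). At least 2-fold changes were fewer: 1764 genes were called and at least 2-fold higher (14.1%) and 1681 at least 2-fold lower (13.5%). Of these, 505 rose and 391 fell by at least 4-fold, and 156 rose and 98 fell by at least 8-fold. The remaining 1861 genes (14.9%) were not called. The groups did not overlap in 9982 genes (80% of those tested). With so many calls, a list is described below by its counts, by its median log2 fold change (over all genes tested the median was 0.000659 and the median absolute change 0.572) and by its 2-fold changes. Scaling to total reads moved the median of all genes to 0.147, so changes of that size hold relative to the scaling. Of the 59 list medians given for this comparison, 15, lying between -0.13 and 0.18, changed sign under another scaling, filter or table.

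**Figure D1:**
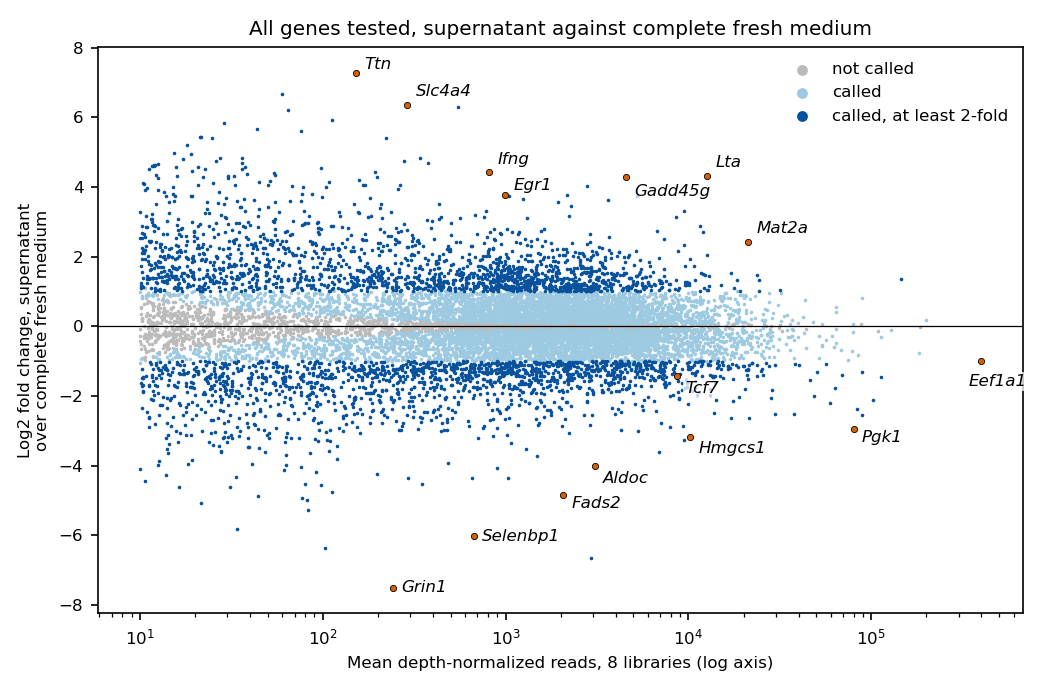
Log2 fold change (supernatant over complete fresh medium, vertical axis) against the mean depth-normalized reads of the 8 libraries (horizontal, log axis) for 12472 genes; grey points were not called, pale points were called, and dark points were called and changed at least 2-fold. With the scaling used here, 1764 genes were at least 2-fold higher and 1681 at least 2-fold lower. With total-read scaling these counts were 2121 and 1371, so their balance depends on the scaling. The labelled genes are described in the text.

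Genes that handle methionine moved in opposite directions. Mat2a, which encodes the catalytic subunit of the enzyme that makes S-adenosylmethionine (chr6:72432796-72439556, build GRCm38.p6), had 6599, 6652, 6578 and 6716 reads in complete fresh medium and 36169.5, 35857, 36007 and 35008 in supernatant. Every supernatant library held more than 5 times the reads of any library of complete fresh medium, and the log2 fold change was 2.43 (SE 0.026; limma adjusted p 3.34e-27). Slc43a2, a transporter that imports methionine and other large neutral amino acids (chr11:75529915-75577575), had 3451, 3529, 3665 and 3379 reads in complete fresh medium and 966, 1057, 1049 and 1048 in supernatant. All 4 supernatant libraries lay below the others (-1.77; limma adjusted p 3.78e-21). Of 16 tested genes of the methionine cycle, 4 rose and 10 fell (median -0.19). Mtrr, which reactivates methionine synthase, rose by 1.62, while Ahcy, the hydrolase that clears S-adenosylhomocysteine, fell from 16317 ± 321 to 3437 ± 115 reads (SD, n = 4) and Gamt, a methyltransferase of creatine synthesis, fell from 29.9 ± 4.02 to 3.17 ± 2.58 reads (SD, n = 4). In the polyamine pathway, which also draws on S-adenosylmethionine, the synthase gene Srm (1.53) and the decarboxylase gene Odc1 (1.10) rose, and the oxidase gene Paox fell by 1.09 and the antizyme gene Oaz1 by 0.91. Of 12 genes of this pathway 6 rose and 5 fell (median 0.08). Among folate and serine enzymes 10 of 16 fell and 4 rose (median -0.20); Aldh1l1 (-3.98), a folate dehydrogenase gene, and Amt (-1.43), of the glycine cleavage system, fell furthest, and Gldc (4.32), of the same cleavage system, and Mthfd2l (0.93), a mitochondrial folate enzyme gene, rose furthest. Genes of transsulfuration, which takes homocysteine out of the cycle, and of glutathione split evenly, 7 higher and 7 lower of 18 (median -0.12), with Oplah (2.50) and Cbs (1.38) upward and Cdo1 (-1.70) and the peroxidase gene Gpx4 (-1.20) downward.

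Glycolysis genes were lower as a group. Of 23 tested, 22 fell and 1 rose, 19 fell at least 2-fold (against 13.5% of all genes), and the median was -1.84. These genes took up 2.39% ± 0.057 of all depth-normalized reads in complete fresh medium and 0.564% ± 0.0097 in supernatant (SD, n = 4). Pgk1, a kinase of the pathway (chrX:106187100-106203699), had 141560.2, 134912, 146284 and 143721 reads in complete fresh medium and 18461, 18970.2, 17928 and 17536 in supernatant. The groups lay far apart, with a log2 fold change of -2.96 (SE 0.031; limma adjusted p 3.34e-27). Ldha, which encodes lactate dehydrogenase A, fell from 139688 ± 3911 to 26652 ± 972 reads (SD, n = 4), Gapdh fell from 97938 ± 3155 to 21376 ± 142 reads (SD, n = 4) and Aldoa, an aldolase gene, fell from 150978 ± 6627 to 25885 ± 1419.5 reads (SD, n = 4). Aldoc, another aldolase gene, fell furthest in the list (-4.02), followed by Pgk1 and the lactate exporter gene Slc16a3 (-2.77). Glucose uptake genes fell as well, Slc2a3 by 2.63 and Slc2a1 by 1.75, as did the hexokinase gene Hk2 (-0.78). Ldhb, the other lactate dehydrogenase subunit, was the exception and rose by 0.44. In the pentose phosphate pathway, which branches from glycolysis, 8 of 10 genes fell (median -0.56), led by the transketolase gene Tkt (-2.02) and the transaldolase gene Taldo1 (-1.58), and the epimerase gene Rpe rose by 0.52.

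The hypoxia response, which shares targets with glycolysis through the HIF transcription factors, was lower too. Of 20 genes 18 fell, 14 of them at least 2-fold, and 2 rose (median -1.92). Bnip3, a mitophagy receptor, had 16539, 16252, 17214 and 18601 reads in complete fresh medium and 1815, 1649, 1856 and 1871 in supernatant. Its levels in the media were nearly 10-fold apart, without overlap (-3.25). Egln3, a prolyl hydroxylase that marks HIF proteins for decay, fell from 16362 ± 879 to 2232 ± 118 reads (SD, n = 4), and Vegfa, an angiogenic factor, fell by 1.04. Adm, the adrenomedullin gene, fell from 34.5 ± 3.38 to 1.95 ± 2.65 reads (SD, n = 4). The transcription factor gene Hif1a was among the exceptions and rose by 0.40, as did Bhlhe40 (0.86), a repressor of the same pathway. HIF proteins bind the core ACGTG. In 300-base promoter windows from RefSeq (build GRCm38.p6; 250 bases before and 50 after the start), this core occurred on either strand in 13 of 22 glycolysis genes and 13 of 15 hypoxia genes with a window, against 29.6% of 8906 tested genes and 19.6% of all windows. Among all genes at least 2-fold lower 31.7% held it, and a match describes the letters, not a bound site. The stretches that hold it in 3 genes of large fall are shown with the core in capitals, its reverse complement included, 5′ to 3′ on the gene's strand.
Pgk1, chrX:106186930-106186993, + strand, from 170 to 107 bases before the start: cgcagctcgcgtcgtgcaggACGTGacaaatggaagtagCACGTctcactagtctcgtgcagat
Slc16a3, chr11:120949020-120949066, + strand, from 47 to 1 bases before the start: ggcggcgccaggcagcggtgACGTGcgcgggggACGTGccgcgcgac
Bnip3, chr7:138909589-138909634, - strand, from 128 to 83 bases before the start: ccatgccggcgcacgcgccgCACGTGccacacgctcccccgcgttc
In Bnip3 the core lies on both strands of the same 6 letters, the E-box CACGTG, which holds ACGTG within it.

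Cholesterol synthesis fell along most of the pathway. Of 27 genes 24 fell, 21 at least 2-fold, and 2 rose (median -1.96). Hmgcs1, an early enzyme of the pathway (chr13:119690351-119708260), had 18088, 17016, 18211 and 20081 reads in complete fresh medium and 2004, 2084, 2079 and 1962 in supernatant. The libraries of the media were separated by a log2 fold change of -3.17 (limma adjusted p 5.72e-26). The isoprenoid enzyme gene Fdps fell by 3.61 and Sqle, the epoxidase that starts the sterol branch, by 1.60. Srebf2, the transcription factor that drives these genes, fell from 20908 ± 1025 to 6905 ± 232 reads (SD, n = 4). The escort protein gene Scap (0.46) and Ggps1 (0.69), which makes the lipid anchor of small GTPases, rose. The sterol response element TCACCCCAC, to which SREBP factors bind, was found on either strand in 1 of 18 windows of the list, that of Hmgcs1, against 0.696% of tested genes and 0.551% of all windows. Among all genes at least 2-fold lower 1.25% held it.
Hmgcs1, chr13:119690194-119690242, + strand, from 157 to 109 bases before the start: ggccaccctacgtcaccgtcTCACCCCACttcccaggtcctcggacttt
The opposite arm, cholesterol efflux, was mixed: the exporter gene Abca1 (1.83) and the receptor gene Nr1h3 (1.32), which encodes LXR alpha, rose, and Srebf1 (-1.62), which drives fatty acid synthesis, and Abcg4 (-1.99) fell, with 5 of 14 genes higher and 8 lower (median -0.48). Of 23 genes of fatty acid synthesis 19 fell, 12 at least 2-fold (median -1.06). The desaturase gene Fads2 fell from 3985 ± 155 to 138 ± 19.1 reads (SD, n = 4), Scd1 by 2.89 and the synthase gene Fasn by 1.06. Gpam (0.34) and Agpat2 (0.27), acyltransferase genes of glycerolipid synthesis, rose.

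Mitochondrial pathways fell by less. Of 26 TCA cycle genes 22 fell and 4 rose (median -0.67), with Idh1 (-2.92), the cytosolic isocitrate dehydrogenase gene, at the low end and Dlst (0.74), a subunit of the 2-oxoglutarate dehydrogenase complex, at the high end, ahead of Ogdh (0.15) of the same complex. Of 46 nuclear genes of the respiratory chain 44 fell, but 9 did so at least 2-fold, and the median was -0.66. Sdhb, a subunit of complex II, fell from 5929 ± 123 to 1606 ± 94.9 reads (SD, n = 4), the ATP synthase gene Atp5c1 fell by 1.67, and Cycs, cytochrome c, rose by 0.22. Fatty acid oxidation genes followed, with 19 of 23 lower (median -0.62), led by Ppard (-1.69), a nuclear receptor gene, and the dehydrogenase gene Acadvl (-1.34), while Eci1 (0.69) and the carnitine carrier gene Slc25a20 (0.29) rose. Nucleotide synthesis fell in 18 of 27 genes and rose in 8 (median -0.28), from Adssl1 (-2.77) and Impdh2 (from 17715 ± 531 to 4533 ± 51.8 reads; SD, n = 4) of purine synthesis to Dctd (1.55) and Umps (1.06) of pyrimidine metabolism. Proteasome subunit genes fell in 33 of 38 cases (median -0.66), with Psma5 (-1.76) and Psmb7 (-1.50) lowest and Psmd7 (0.71) and the activator gene Psme3 (0.32) highest.

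**Figure D2:**
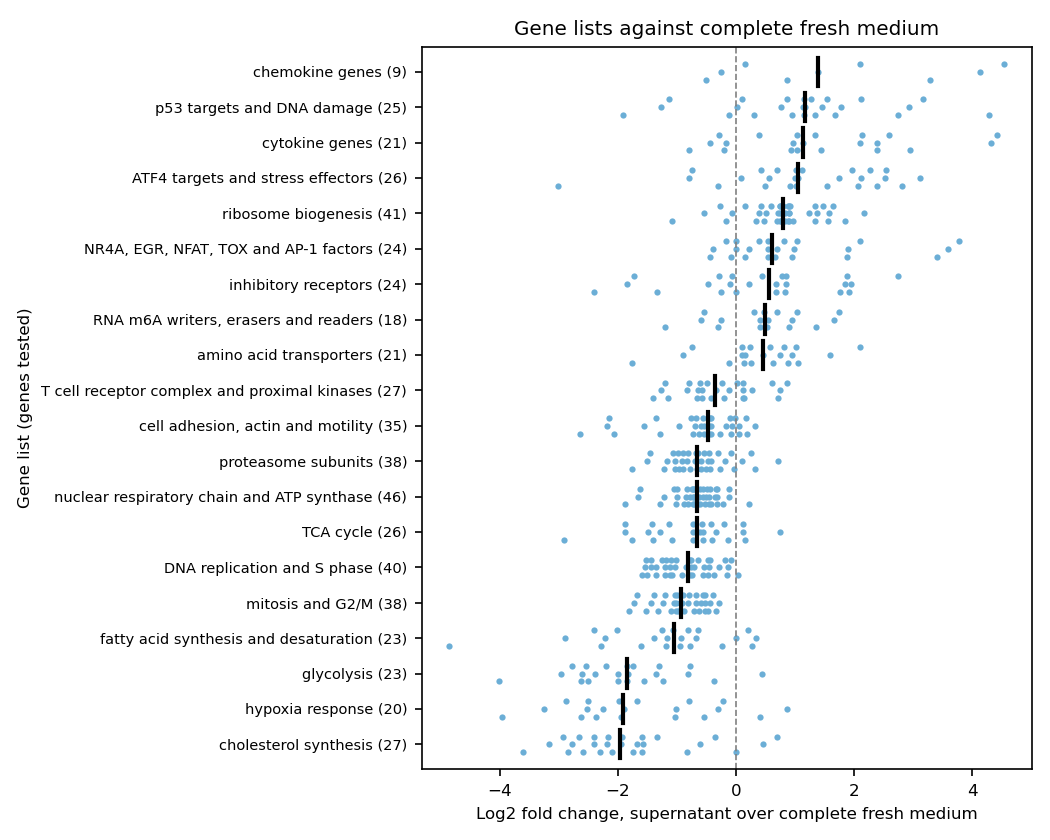
Log2 fold change, supernatant over complete fresh medium (horizontal axis), of the tested members of 20 gene lists (1 row each, small points) with the median of each list (bar); the dashed line marks no change. Glycolysis (-1.84), hypoxia response (-1.92) and cholesterol synthesis (-1.96) have the lowest medians of the lists drawn, and chemokine (1.38), p53 target (1.16) and cytokine genes (1.13) the highest. The chemokine median is over the 9 of 17 genes tested, of which Cxcl10 reached the minimum mean of 10 reads through supernatant alone.

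Cell cycle genes were lower in supernatant. All 38 tested genes of mitosis fell, 15 at least 2-fold (median -0.93), and 39 of 40 genes of DNA replication fell, 18 at least 2-fold (median -0.82). Ccnb2, a mitotic cyclin gene, had 8708, 7846, 8772 and 8303 reads in complete fresh medium and 2576, 2483, 2456 and 2650.5 in supernatant. No library of either medium came near those of the other (-1.72; limma adjusted p 7.96e-22). Bub1, a spindle checkpoint kinase gene, fell by 1.81, the topoisomerase gene Top2a fell from 72484 ± 4315 to 29014 ± 1111 reads (SD, n = 4), and Mki67, which encodes the proliferation marker Ki-67, fell by 0.39. With quantile normalization, however, Mki67 was called higher (0.24), and in the FPKM values without the replicate block it was not called (-0.41). In S phase, the ligase gene Lig1 fell by 1.55, the clamp loader gene Rfc4 by 1.59 and the clamp gene Pcna by 1.08. Tyms, a thymidylate synthase gene, was the member not called (0.03, limma adjusted p 0.548), though with total-read scaling it was called higher (0.17). Among 27 G1 regulators 17 fell and 8 rose (median -0.38), and the rises included the inhibitor gene Cdkn1a (1.54), which encodes p21, and the kinase gene Cdk6 (1.53), while the inhibitor genes Cdkn2a (-1.82) and Cdkn2b (-1.39) fell from low levels. The cell cycle homology region TTTGAA, a short element of mitotic promoters, was present on either strand in 22 of 31 mitosis genes with a window, against 14.2% of tested genes and 17.9% of all windows, and both genes shown hold it more than once.
Cdk1, chr10:69352913-69353003, - strand, from 91 to 1 bases before the start: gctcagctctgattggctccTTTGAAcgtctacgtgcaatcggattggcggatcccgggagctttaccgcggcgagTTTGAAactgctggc
Top2a, chr11:99024190-99024388, - strand, from 199 to 1 bases before the start: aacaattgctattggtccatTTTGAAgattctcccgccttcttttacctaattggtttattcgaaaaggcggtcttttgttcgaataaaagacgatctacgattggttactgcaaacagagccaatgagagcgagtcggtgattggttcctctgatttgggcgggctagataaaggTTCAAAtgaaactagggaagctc
Cdk1, the kinase that starts mitosis, fell by 0.92. Among genes at least 2-fold lower in general, 14.8% held the element.

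Targets of p53 rose while the division genes fell. Of 25 genes 19 rose, 15 at least 2-fold (against 14.1% of all genes), and 4 fell (median 1.16). Gadd45g, a stress and damage sensor that also responds to cytokines, had 451, 484, 408 and 435 reads in complete fresh medium and 8581, 8706, 8791 and 8354 in supernatant. Supernatant libraries lay far above the others (4.27, SE 0.045; limma adjusted p 3.34e-27). Cdkn1a rose from 8742 ± 328 to 25372 ± 1604 reads (SD, n = 4), the AKT inhibitor gene Phlda3 by 3.16 and Mdm2, the ligase that degrades p53, by 1.45. Ccng1, a cyclin G gene, was also among the 10 largest gains in reads (from 13832 ± 557 to 35028 ± 788 reads; SD, n = 4). The death genes Pmaip1 (1.27), Bbc3 (1.17) and Bax (1.13) rose, and so did their opponents Bcl2l1 (1.85) and Mcl1 (1.15), while Casp9 (-1.45), a caspase gene, and Bmf (-1.24), a death gene, fell. Over 28 genes of the BCL2 family and of cell death 14 rose and 11 fell (median 0.05). Bcl2, a survival gene, rose by 0.09 (limma adjusted p 0.00649). Members of the p53 list that fell at least 2-fold were Ccng2 (-1.91), Ddb2 (-1.27) and Sesn1 (-1.14).

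Genes of the amino acid response rose. Of 26 ATF4 targets and stress effectors 22 rose, 15 at least 2-fold, and 4 fell (median 1.04). The list includes p53 targets such as Cdkn1a and Sesn2, so the lists overlap. Trib3, a pseudokinase that damps the response, had 2385, 2173, 2099 and 2098 reads in complete fresh medium and 12776, 12009, 12158 and 13017 in supernatant. The media did not overlap (2.51; limma adjusted p 2.39e-24). Atf5 (3.11), Atf3 (2.39) and Ddit3 (2.06), which encodes CHOP, are transcription factor genes of the response and rose, Atf4 rose from 13323 ± 332 to 25000 ± 203 reads (SD, n = 4), and the stress gene Nupr1 rose by 2.54. Avil, an actin-binding protein gene of the list, rose by 2.81. Asns, the asparagine synthetase gene, rose by 0.42. Vldlr, a lipoprotein receptor (-3.01), and Ddit4 (-0.80), an mTORC1 inhibitor and hypoxia target, fell. The C/EBP-ATF element TGATGNAAN was present on either strand in 11 of 24 windows of the list, against 2.85% of tested genes and 3.95% of all windows. Among all genes at least 2-fold higher 3.41% held it. The 3 windows shown belong to genes of large and small rise.
Atf3, chr1:191183416-191183464, - strand, from 131 to 83 bases before the start: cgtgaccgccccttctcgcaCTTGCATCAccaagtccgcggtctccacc
Nupr1, chr7:126625553-126625601, - strand, from 131 to 83 bases before the start: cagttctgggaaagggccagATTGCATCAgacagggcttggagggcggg
Asns, chr6:7693210-7693252, - strand, from 43 to 1 bases before the start: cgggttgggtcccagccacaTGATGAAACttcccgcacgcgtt
Amino acid transporter genes rose in 17 of 21 cases (median 0.46), among them Slc7a5 (from 13852 ± 1098 to 25513 ± 1237 reads; SD, n = 4) and its partner Slc3a2 (1.05), which together import large neutral amino acids. The highest log2 fold changes were those of Slc7a7 (2.09) and Slc38a7 (1.58), and Slc36a1 (-0.90), a proton-coupled transporter gene, fell. Slc43a2, with an overlapping substrate range, was the member that fell at least 2-fold. Aminoacyl-tRNA synthetase genes split, 10 higher and 9 lower of 21, from Yars (1.09) and Eprs (1.0) to Qars (-1.71) and Dars (-1.42), with a median of 0.04. Mars, which charges tRNA with methionine, rose by 0.20.

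Ribosome assembly genes rose although elongation factor genes fell. Of 41 ribosome biogenesis genes 36 rose, 10 at least 2-fold, and 4 fell (median 0.79), led by the assembly factor gene Rrs1 (from 1077 ± 59.4 to 4848 ± 59.1 reads; SD, n = 4) and by Bysl (1.84, but 0.27 in the FPKM values). Polr1c, a subunit of RNA polymerase I and III, fell by 0.54. Npm1, a nucleolar chaperone, was the member that fell at least 2-fold (-1.08). Myc, which drives such genes, rose from 6054 ± 316 to 17289 ± 547 reads (SD, n = 4), as did the kinase gene Pim1 (1.48), while Mxd3 (-1.58) and Mycn (-0.75) of the same network fell and the median of its 17 genes was -0.15. Eef1a1, the elongation factor that delivers tRNA, lost more reads than any other gene that met the naming conditions (from 532061 ± 14799.9 to 266918 ± 939 reads; SD, n = 4); with quantile normalization its fold change was 0.00. Eef2 (-0.78) and Eef1g (-1.08) fell as well, and the initiation factor genes Eif4g2 (0.76) and Eif1a (1.56) and the synthetase complex gene Eef1e1 (1.41) rose. Over 39 translation factor genes 14 rose and 20 fell, Eif3h by 1.43 (median -0.10). The chaperone genes Hsp90ab1 (-1.46) and Hspa8 (-1.30) and the tubulin gene Tubb5 (-1.76) were also among the 10 largest losses in reads, together with Eef2 and 5 glycolysis genes, Pkm2 (-2.13), Aldoa, Pgk1, Ldha and Gapdh. The 10 largest gains in reads were those of the class I genes H2-K1 (0.80) and H2-D1 (0.56), Mat2a, Actb (0.19), Lta, Eif4g2, Ccng1, Txnip (1.46), which encodes an inhibitor of thioredoxin and glucose uptake, the tubulin gene Tubb4b (1.03) and the splicing factor gene Son (0.97).

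Protein folding, redox and degradation genes were mixed. Of 26 endoplasmic reticulum genes 11 rose and 12 fell (median 0.02), with the chaperone gene Hspa5 (0.81) and its partner Dnajb9 (1.33) higher and the oxidase gene Ero1l (from 50447 ± 2643 to 8785 ± 334 reads; SD, n = 4) and Hsp90b1 (-1.06) lower. Of 17 cytosolic heat shock genes 8 rose and 9 fell (median -0.21); Cryab (1.76) and Hspa1b (0.85) rose at low levels and Hspa4l fell by 1.33. NRF2 targets fell in 16 of 26 cases and rose in 8 (median -0.15), from the quinone reductase gene Nqo1 (-2.66) and the biliverdin reductase gene Blvrb (-2.41) to Osgin1 (1.95). The mTOR and amino acid sensing genes (15 of 30 higher, 12 lower, median 0.08) held the sensor gene Sesn2 (2.11) and Rragb (0.88) upward and Lamtor2 (-1.23) and Rragd (-1.20), parts of the lysosomal docking complex, downward. Among 38 genes of autophagy and the lysosome, 15 rose, with Mitf (1.13) and Ctsz (0.92) first, and 15 fell, with Wipi1 (-3.45) last (median -0.02). Metal handling genes gave 6 rises and 10 falls of 18 (median -0.08): the zinc transporter genes Slc30a1 (2.64) and Slc39a7 (0.70) rose, and the metallothionein gene Mt3 (-2.30) and Tfrc (from 31721 ± 1235 to 9122 ± 253 reads; SD, n = 4), the transferrin receptor gene of dividing cells, fell.

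Genes that use or read methyl marks did not move as a block. Of 40 histone lysine methyltransferase and demethylase genes 21 rose and 16 fell (median 0.13). Suv420h1 (1.07), which encodes a histone H4 methyltransferase, and Smyd5 (1.05) rose, and Ezh2 (-0.99), the H3K27 methyltransferase gene, and the demethylase genes Kdm6b (-1.11) and Kdm4b (-1.01) fell. Dot1l, the H3K79 methyltransferase gene, had 3941, 4284, 3791 and 3542 reads in complete fresh medium and 3948, 4378, 3958 and 4139 in supernatant. Its groups overlapped and it was not called (0.08, limma adjusted p 0.108), whereas it passed, upward, when libraries were scaled to total reads (0.23), with the replicate block (0.08) and without complete fresh medium replicate 1 (0.13). The maintenance DNA methyltransferase gene Dnmt1 fell from 32492 ± 365 to 14893 ± 144 reads (SD, n = 4) and its partner Uhrf1 by 1.44; both are also in the replication list. Uhrf2 (0.85) and Gadd45a (1.77) rose, and the 14 genes of DNA methylation split into 7 rises and 7 falls (median 0.01). Of genes that DNA methylation keeps silent, few could be tested: 2 of 5 germline genes rose, Dazl (from 14 ± 6.01 to 69.1 ± 2.57 reads; SD, n = 4) and Tdrkh (0.38), and Xlr3b (-1.23) and Brdt (-0.39, or -0.24 and not called with total-read scaling) fell. Of 14 imprinted genes 8 rose and 4 fell (median 0.29); Grb10 (from 84.2 ± 8.91 to 528 ± 78.1 reads) and Ndn (from 0.218 ± 0.436 to 20.6 ± 8.5 reads; SD, n = 4) rose, and Nespas (-1.06), an antisense RNA whose reads could belong to its partner, and Peg3 (-0.75) fell. Ndn reached the minimum mean of 10 reads through supernatant alone, so its rise is no independent support. The call of Peg3 was lost when supernatant replicate 3 (-0.54) or complete fresh medium replicate 1 (-0.68), 2 (-0.70) or 3 (-0.73) was left out, and also with total-read scaling (-0.61) and with DESeq2 (-0.73). By contrast 13 of 18 genes of RNA m6A methylation rose (median 0.49), with the readers Ythdf2 (from 2837 ± 94.7 to 9460 ± 159 reads; SD, n = 4) and Ythdc1 (1.66) and the writer Mettl16 (1.35), which methylates the Mat2a transcript, among the rises. The reader gene Igf2bp3 (-1.21) and 1110037F02Rik (-0.59), listed as a writer subunit, fell. Of 10 protein arginine methyltransferase genes 6 rose and 4 fell (median 0.24), with Prmt6 (1.49) and the cofactor gene Wdr77 (1.29) higher and Prmt2 (-0.44) and Prmt1 (-0.40) lower.

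Cytokine genes rose. Of 21 tested, 16 rose, 13 at least 2-fold, and 3 fell (median 1.13). Ifng, which encodes interferon gamma (chr10:118441046-118445894), had 81.7, 60.7, 76.5 and 68.8 reads in complete fresh medium and 1509, 1579.7, 1679 and 1424 in supernatant. Even the lowest supernatant library held more than 10 times the reads of any library of complete fresh medium (4.42, SE 0.089; limma adjusted p 2.61e-22). Lta, lymphotoxin alpha, had 1239, 1243, 1204 and 1119 reads in complete fresh medium and 23158, 24669, 24434 and 23894 in supernatant. Its log2 fold change was 4.32 (limma adjusted p 8.14e-29). Tnf had 594, 609.6, 502 and 577 reads in complete fresh medium and 2949, 2998, 3125 and 2878 in supernatant, again without overlap (2.39). Csf2 (2.95), Fasl (2.10), the death ligand gene, and Il10 (2.58), an anti-inflammatory cytokine gene, rose, and Tgfb1 and Tgfb3 fell by 0.44 and 0.79. Of 17 chemokine genes with a value, 9 were tested. Of these 6 rose, among them Cxcl10 (from 7.29 ± 2.38 to 187 ± 23.1 reads; SD, n = 4) and Ccl3 (from 11.1 ± 3.43 to 206 ± 31.1 reads; SD, n = 4), and Ccl5 fell by 0.52. Cxcl10 reached the minimum mean of 10 reads through supernatant alone, so its rise is no independent support. The homing receptors went the other way, 16 of 28 lower (median -0.24), including Cxcr4 (-1.81), with Ccr4 (2.06) and Fut7 (1.12), which makes selectin ligands, as the largest rises in that list.

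**Figure D3:**
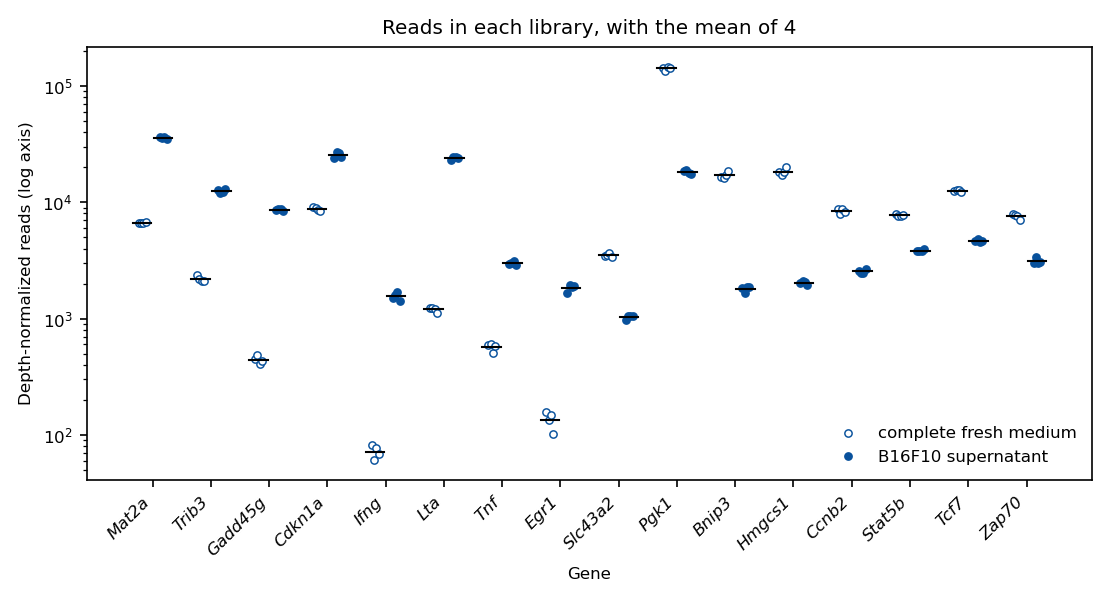
Depth-normalized reads (vertical, log axis) in each of the 4 libraries of complete fresh medium (open circles) and of supernatant (filled circles) for 16 genes, with the mean of each group as a bar. Mat2a, Trib3, Gadd45g, Cdkn1a, Ifng, Lta, Tnf and Egr1 are higher in every supernatant library, and Slc43a2, Pgk1, Bnip3, Hmgcs1, Ccnb2, Stat5b, Tcf7 and Zap70 are lower in every one.

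Genes set off by T cell receptor and growth factor signals rose although receptor genes fell. Egr1, an immediate early transcription factor, had 157, 133, 148 and 101 reads in complete fresh medium and 1642, 1932, 1872 and 1921 in supernatant. The groups were separated by 3.78 log2 units (limma adjusted p 2.37e-20). Of 24 genes in the list of NR4A, EGR, NFAT, TOX and AP-1 factors 18 rose (median 0.60), including Egr2 (3.40) and Fosb (3.59). In that list 4 fell, furthest Rcan1 (-0.45) and Ikzf3 (-0.38), which are listed with these families but belong to others. NF-kB factors and targets rose in 20 of 24 cases (median 0.45), among them Cd83 (3.30), Relb (2.2) and the inhibitor gene Nfkbia (1.68), and Map3k14 (-0.66) and Traf1 (-0.32) fell. Of 20 feedback inhibitors of MAP kinases 14 rose and 6 fell (median 0.61), with Dusp4 (from 542 ± 50.5 to 6727 ± 146 reads; SD, n = 4) rising ahead of Dusp2 (2.23), while Spred3 (-1.50) and Dusp22 (-1.21) fell. Of 27 genes of the receptor complex and its kinases 17 fell and 9 rose (median -0.35). Zap70, the kinase recruited to the receptor, had 7906, 7754, 7549 and 7009.9 reads in complete fresh medium and 2988, 3399.8, 3012 and 3068 in supernatant. All supernatant libraries lay below the others (-1.28), and Cd3g (-1.41) and the kinase gene Lck (-1.14) fell with it. The adhesion receptor gene Cd2 rose by 0.74 and Cd8a by 0.60.

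Inhibitory receptors split by gene. Of 24 tested, 13 rose, 6 at least 2-fold, and 7 fell (median 0.56). Pdcd1, which encodes PD-1, had 916, 847, 927 and 1013 reads in complete fresh medium and 1554, 1403, 1493 and 1476 in supernatant. Its groups did not overlap (0.68; limma adjusted p 2.85e-11). The PD-1 ligand gene Cd274 rose from 1066 ± 53.4 to 4003 ± 73.2 reads (SD, n = 4), Lilrb4 by 2.73 and Cd200 by 1.94. Lag3 fell from 8021 ± 253 to 3181 ± 78.5 reads (SD, n = 4), Cd160 by 1.72, Cd244 by 1.86 and Lair1 by 2.40. Ctla4 was not called (from 19793 ± 876 to 19766 ± 1114 reads; SD, n = 4), though with total-read scaling and quantile normalization it was, at 0.14 and 0.24. Among costimulatory genes 13 of 22 rose and 9 fell (median 0.18): Cd28 (-0.99), the receptor used here for stimulation, and Cd7 (-2.18) fell, and the ligand genes Cd70 (3.75) and Tnfsf4 (3.09) rose.

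The IL-2 pathway changed at several levels. Stat5b, the transcription factor downstream of the IL-2 receptor (chr11:100780731-100859004), had 7967, 7639.9, 7675 and 7715 reads in complete fresh medium and 3830.4, 3797, 3794 and 3953 in supernatant. Every supernatant library lay below every other (-1.01; limma adjusted p 2.57e-19). Stat5a fell by 0.21 (with total-read scaling -0.06 and not called), Jak3 by 1.30 and the receptor chain gene Il2ra by 0.61, whereas the shared chain gene Il2rg rose by 0.39. The feedback inhibitor genes Cish (from 3184 ± 138 to 20943 ± 968 reads; SD, n = 4) and Socs1 (2.12) rose, and so did the cytokine gene Osm (2.14). Over 31 genes of this list 15 rose and 15 fell (median 0.04). Cytokine receptor genes divided in the same way, 11 higher and 11 lower of 27 (median -0.02); Il21r (1.51) and Ifngr2 (1.17) rose furthest, and Il7r (-0.71) and Il18r1 (-0.70) fell furthest.

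Transcription factors of T cell fate went both ways. Tcf7, which encodes TCF-1, a factor of naive and memory cells, had 12508, 12785, 12649 and 12222 reads in complete fresh medium and 4612, 4857, 4515 and 4663 in supernatant. The groups did not overlap (-1.43; limma adjusted p 5.07e-22). Of 24 naive and memory genes 13 fell and 11 rose (median -0.30); Dapl1 (-2.61), Bcl6 (-2.21) and Id3 (-1.30) fell, and Eomes (0.86) and Zeb1 (0.83) rose. Among effector factors 11 of 22 rose and 10 fell (median 0.18), including Maf (1.74) and Zeb2 (1.28) upward and Runx1 (-1.51) and Rora (-1.38) downward; Tbx21, which encodes T-bet, fell by 0.19 (with total-read scaling -0.04 and not called).

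Genes of the killing machinery moved both ways. Gzmb, granzyme B, had 138301, 133051, 131735 and 130369 reads in complete fresh medium and 123756, 126506, 124527 and 118077 in supernatant. It was called lower (-0.11, limma adjusted p 0.00116), but its sign turned with total-read scaling (0.03) and with quantile normalization (0.42). Prf1, perforin, was not called (from 1187 ± 44.1 to 1134 ± 58.6 reads; SD, n = 4), though quantile normalization called it lower (-0.12) and total-read scaling turned its sign (0.08, not called). Gzma fell by 1.84 and Gzmk by 1.78, while Gzmc rose by 2.21 and Gzmf by 1.46; granzyme genes are close relatives and may share reads. Of 21 genes of this list 13 fell and 5 rose (median -0.13, or 0.01 with total-read scaling). Genes of the cytoskeleton and its regulators were mostly lower. Of 35 tested, 29 fell and 3 rose (median -0.47), with Anxa2 (from 36961 ± 1527 to 5894 ± 165 reads; SD, n = 4), a membrane-binding annexin, and the galectin gene Lgals3 (-2.19) falling furthest. Actb, the actin gene often used as a reference, rose by 0.19 and the GTPase gene Rhoh by 0.31.

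Interferon response genes showed rises and falls. Of 45 tested, 28 rose, 10 at least 2-fold, and 16 fell, 4 at least 2-fold (median 0.40). Isg15, a ubiquitin-like modifier, had 42.5, 42.3, 46.8 and 68.8 reads in complete fresh medium and 260.5, 225, 271 and 218 in supernatant. Oas3, an antiviral RNA sensor, had 4904, 5168, 5105 and 5176 reads in complete fresh medium and 1549, 1582, 1575 and 1620.4 in supernatant. The groups were apart in both genes, upward for Isg15 (2.28) and downward for Oas3 (-1.69). Ifit1 (2.80) and Mx2 (2.99) rose from low levels, and Dhx58 (-2.38), a regulator of RNA sensing, fell. The interferon element GAAANNGAA occurred on either strand in 19 of 31 windows of the list, against 8.48% of tested genes and 8.56% of all windows. Among all genes at least 2-fold higher 9.63% held it, and among those at least 2-fold lower 7.36%. In the list it occurred in genes of either direction, as the windows of Isg15, Ifit1 and Oas3 show (overlapping matches are joined in capitals).
Isg15, chr4:156200856-156200916, - strand, from 98 to 38 bases before the start: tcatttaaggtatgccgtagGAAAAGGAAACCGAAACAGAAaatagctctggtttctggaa
Ifit1, chr19:34640760-34640833, + strand, from 129 to 56 bases before the start: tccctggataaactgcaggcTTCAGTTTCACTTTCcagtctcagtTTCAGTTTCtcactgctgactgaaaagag
Oas3, chr5:120777700-120777754, - strand, from 95 to 41 bases before the start: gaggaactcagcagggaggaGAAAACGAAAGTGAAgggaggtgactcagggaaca
In antigen presentation, H2-K1 rose from 64945 ± 1158 to 113374 ± 1857 reads (SD, n = 4) while B2m, the chain that pairs with it, fell by 0.61 (0.00 with quantile normalization). Over 20 genes of this list 12 rose and 5 fell (median 0.30); the class II genes split, Cd74 (1.40) rising and H2-Ab1 (-1.89) falling, and the class Ib gene H2-T23 fell by 0.83.

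Other signalling lists held large changes in both directions. Of 30 cAMP and G protein regulators 12 rose, 8 at least 2-fold, and 14 fell, 5 at least 2-fold (median -0.08). Rgs1 (from 1733 ± 65 to 17230 ± 514 reads; SD, n = 4) and Rgs16 (2.69), brakes on G protein signalling, rose, and the phosphodiesterase gene Pde4a (-1.93) and the kinase gene Prkaca (-1.76) fell. Of 20 TGF-beta response genes 10 rose and 7 fell (median 0.04), from the feedback genes Skil (2.02) and Pmepa1 (2.00) to Id3, which fell. Glucocorticoid-responsive genes included Sgk1 (1.0) and Klf9 (0.75) upward and the decoy receptor gene Il1r2 (-2.44) and Pik3ip1 (-1.38), a PI3K inhibitor, downward, with 4 rises and 7 falls of 14 (median -0.11). Quiescence genes of KLF2 and FOXO1 gave 10 rises and 8 falls of 19 (median 0.11): Klf4 (2.17) and Tagap (2.10) rose, as did Btg1 (from 4253 ± 140 to 16069 ± 431 reads; SD, n = 4), an inhibitor of proliferation, and Cdkn1b, which encodes p27, fell by 1.0. Of 8 aryl hydrocarbon receptor targets 3 rose and 5 fell (median -0.66). The feedback repressor gene Ahrr rose by 2.28 and Lpar6 fell by 1.75. Cyp1b1, a monooxygenase gene, had 0, 0, 0 and 0 reads in complete fresh medium, 62.7, 58.3, 39.1 and 55.1 in methionine-free medium and 23.5, 19.9, 24.7 and 25.1 in supernatant. Its reads were 0 in every library of complete fresh medium, so no fold change is given, and every methionine-free library held more than any supernatant library. Cyp1b1 is counted among the rises, but it reached the minimum mean of 10 reads through supernatant alone.

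Several of the most changed genes encode proteins known from other tissues. Of the called genes with an annotated name, at least 100 reads on average and separate media, the muscle protein gene Ttn (7.28), the bicarbonate transporter gene Slc4a4 (6.36), the ubiquitin ligase gene Hecw2 (6.29), the scramblase gene Plscr2 (5.91) and Agap1 (5.39), a GTPase regulator, rose most. They were followed by Myo16 (4.84), Pdzk1 (4.74), the glutamate transporter gene Slc1a2 (4.70), the protease gene Tmprss6 (4.43), Pomc (4.27), which encodes the precursor of melanocortin peptides, and Plaur (4.19), the urokinase receptor gene. Slc4a4 had 7.83, 4.23, 7.2 and 5.23 reads in complete fresh medium and 602, 508, 593 and 595 in supernatant. The NMDA receptor subunit gene Grin1 fell most (-7.51), with 489.9, 485, 508 and 438 reads in complete fresh medium and 3.06, 1.17, 1.59 and 1.14 in supernatant. Next came Bzrap1 (-6.65), Fam183b (-6.37), Selenbp1 (-6.04), a selenium-binding methanethiol oxidase, Atp7b (-4.76), a copper transporter, Itga7 (-4.52), Smtnl2 (-4.36), Plcxd1 (-4.36), Dnm1 (-4.25), Cyp11a1 (-4.07), which makes pregnenolone from cholesterol, Cyp2s1 (-3.92) and Unc13a (-3.72). Genes with under 10 reads in every library of 1 medium and at least 50 in every library of the other numbered 22 in favour of supernatant and 15 in favour of complete fresh medium. Beside Slc4a4, Ttn and Plscr2, the highest in supernatant were Gcnt3 (from 2.29 ± 1.42 to 149.7 ± 17 reads) and Ogn (from 1.03 ± 1.3 to 128 ± 16.5 reads; SD, n = 4). Beside Grin1 and Fam183b, the highest in complete fresh medium were Apln (from 188 ± 21.5 to 7.2 ± 2.26 reads), Spns2 (from 161 ± 15.7 to 4.61 ± 3.91 reads), an exporter of sphingosine-1-phosphate, and Mgat3 (from 159 ± 14.8 to 4.64 ± 2.92 reads; SD, n = 4). The folds of these genes depend on the 1 read added before taking logs, and some on 1 library: without complete fresh medium replicate 1, Plscr2 was 5.29, and without supernatant replicate 1, Spns2 was -4.59, against -5.28 with it. In the FPKM values, 14 of 331 named genes differed by more than 1 log2 unit from the value given here, among them Slc4a4 (4.12), Agap1 (3.26), Pdzk1 (2.03) and Grin1 (-5.18), each in the same direction.

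Markers of other cell types were read in the same libraries. The CD8 T cell genes Cd8a, Cd8b1 (from 19616 ± 781 to 21198 ± 207 reads; SD, n = 4) and Cd3e (from 10427 ± 110.4 to 5875 ± 147 reads; SD, n = 4) were high in both media. Of 14 melanoma and melanocyte markers with a value, 6 (Mlana, Tyrp1, Dct, Slc45a2, S100b and Mc1r) stayed under 10 reads in all 8 libraries, and their summed level was 1247 to 1332 reads in complete fresh medium and 829 to 917 in supernatant. Of 7 tested, 3 rose and 3 fell: Pmel rose from 29.1 ± 4.81 to 131 ± 12.3 reads and Trpm1 by 1.75, and Gpnmb fell from 398 ± 18.9 to 77 ± 10.7 reads (SD, n = 4) and Kit by 1.04. In the FPKM values Pmel differed by 0.24 log2 units, which limma called with the replicate block alone. Of 9 B cell markers Pax5, Blnk and Fcer2a stayed under 10 reads, 2 of 3 tested rose, and the sum was 523 to 583 reads in complete fresh medium and 760 to 881 in supernatant, most of it Cd79b (from 511 ± 18.2 to 765 ± 59.8 reads; SD, n = 4). Myeloid markers summed to 634 to 693 reads in complete fresh medium and 362 to 410.5 in supernatant, with Lyz1, Csf1r, Emr1, Csf3r and Siglec1 under 10 reads throughout, 3 of 6 tested higher (Cd14, 1.99, and Fcgr3, 1.03, furthest) and 2 lower (Itgax, -2.23, and Cd68, -2.11). NK cell markers (3 of 8 higher, 2 lower) summed to 6668 to 7526 and 4943 to 5109.6 reads, a sum that holds Gzma and Eomes, which CD8 T cells express. Most of this sum in complete fresh medium was Gzma, which fell from a mean of 5233 to 1463 reads. Klrb1c fell from 102 to 55.3 reads, and the rises included Klre1 (from 376 to 1275 reads) and Eomes (from 1009 to 1839 reads). CD4 T cell markers rose in 5 of 8 cases, to 13589 to 14086 reads from 6504 to 6886, through Ccr4, the CD4 lineage factor gene Zbtb7b (from 1781 ± 90.1 to 3874 ± 195 reads; SD, n = 4) and Foxp3 (from 50.8 ± 2.46 to 233 ± 33.2 reads; SD, n = 4), whereas Ikzf2 fell by 0.61 and Cd4 itself was not called (from 182 ± 20.8 to 172 ± 23.1 reads; SD, n = 4). Of the fibroblast, endothelial, erythroid and platelet markers Lum, Pdgfra, Sparc, Cdh5, Kdr, Alas2 and Gp9 stayed under 10 reads; Col1a2 rose from 7.81 ± 2.05 to 22.5 ± 2.72 reads and Pdgfrb fell from 70.3 ± 8.95 to 7.51 ± 6.28 reads (SD, n = 4; -3.47, or -2.85 without supernatant replicate 2), and Pecam1, which T cells express too, fell by 0.93. The part of other cells in the results above was not tested, and in bulk RNA fewer cells of a type and less RNA per cell cannot be told apart.

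Whether the changes in supernatant differ from those in fresh medium without methionine was tested directly between these media in a fit of all 16 libraries. Supernatant was higher in 1743 genes (14% of those tested) and lower in 1598 (12.8%), and differences of at least 2-fold were rare, with 34 genes higher (0.273%) and 12 lower (0.0962%). The remaining 9131 genes were not called, which does not show that they are equal. The median absolute difference was 0.0943 log2 units. Genes were admitted by their mean over supernatant and complete fresh medium alone, so genes with reads mainly in methionine-free medium could be left out. With no filter, 78 genes were at least 2-fold higher in supernatant and 87 lower. The excess of higher over lower genes at that size therefore depends on the filter. This comparison and the one above share the supernatant libraries, so their values are given side by side and not counted against each other. The number of calls depended on the table: in the FPKM values 23 genes were higher and 9 lower. The genes of division differed together: in limma, all 38 mitosis genes and all 40 replication genes were lower in supernatant than in methionine-free medium (medians -0.33 and -0.28). Mki67 had 61684, 63450.5, 65405 and 67328 reads in complete fresh medium, 61395, 65312, 61693 and 58331 in methionine-free medium and 49618, 47057, 48984 and 50459.5 in supernatant. Supernatant lay below methionine-free medium in every library (-0.33; limma adjusted p 1.51e-08). Of 25 p53 targets 17 were lower in supernatant (median -0.17), including Bbc3 (-0.47) and Phlda3 (-0.41). In the FPKM values without the replicate block, Mki67, Bbc3 and Phlda3 were also lower but not called.

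Glycolysis, cholesterol synthesis and hypoxia genes were mostly higher in supernatant than in methionine-free medium, and the other metabolic lists varied. Of 23 glycolysis genes 18 were higher (median 0.21), of 27 cholesterol genes 19 (median 0.25) and of 20 hypoxia genes 13 (median 0.17). Of 26 TCA cycle genes 4 were higher and 1 lower, of 46 respiratory chain genes 2 and 1, and of 23 genes of fatty acid oxidation 3 and 1. Fatty acid synthesis gave 10 higher and 2 lower of 23, the pentose phosphate pathway 4 and 2 of 10, and nucleotide synthesis 3 and 9 of 27. Aldoc had 5577, 5374, 6262 and 5959 reads in complete fresh medium, 148, 109, 161 and 166 in methionine-free medium and 374, 331, 341 and 376 in supernatant. The media did not overlap, with supernatant above methionine-free medium (1.30; limma adjusted p 3.17e-13) and far below complete fresh medium.

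Some lists of T cell genes were mostly higher in supernatant than in methionine-free medium, with 14 of 21 cytokine genes (median 0.25), 15 of 24 inhibitory receptors (median 0.24), 15 of 27 receptor complex genes and 13 of 21 killing genes. Homing and chemokine receptors gave 16 higher and 1 lower of 28, effector factors 11 and 3 of 22, costimulatory genes 8 and 1 of 22, and the JAK, STAT and IL-2 list 13 and 1 of 31. Over all genes tested 14% were higher and 12.8% lower. Of 9 chemokine genes 0 were higher and 1 lower, and of 24 NF-kB genes 2 and 6. The list of NR4A, EGR, NFAT, TOX and AP-1 factors gave 3 and 3 of 24, and naive and memory genes 5 and 3 of 24. Ifng had 81.7, 60.7, 76.5 and 68.8 reads in complete fresh medium, 907, 911, 861 and 984 in methionine-free medium and 1509, 1579.7, 1679 and 1424 in supernatant. The 3 media were separate, with Ifng higher in supernatant than in methionine-free medium (0.76; limma adjusted p 1.14e-08). Prf1, not called against complete fresh medium, was higher by 0.53 (limma adjusted p 1.45e-08), Pdcd1 by 0.30, Gzmb by 0.26 and Il10 by 1.26. NK cell receptor genes, which effector CD8 T cells can express, were higher as well, among them Klre1 (0.61) and Klrb1c (1.17), as 7 of 8 NK cell markers were. In the FPKM values without the replicate block, Ifng, Prf1, Pdcd1, Gzmb and Klre1 kept this direction but were not called. Genes named above for large changes against complete fresh medium could show little difference here. Not called were Mat2a (0.01, SE 0.027), Slc43a2 (0.01, SE 0.039), Stat5b (-0.01, SE 0.029) and Tcf7 (-0.03, SE 0.03).

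By the same naming conditions, the further genes that stood highest in supernatant relative to methionine-free medium were Oplah (1.66), a glutathione cycle enzyme, Slc4a4 (1.51), D18Ertd653e (1.07), the phospholipase gene Plcd1 (1.01) and the methyltransferase gene Smyd3 (1.0). Among the lowest were Zfp750 (-0.80), E2f7 (-0.78), a repressor of S phase genes, Hic1 (-0.78), the ciliary gene Nphp4 (-0.67), Selenbp1 (-0.73), the lipid transfer gene Pltp (-0.69) and Prx (-0.65). Oplah had 45.9, 49.4, 55.8 and 42.7 reads in complete fresh medium, 84.2, 97.9, 71.9 and 97.9 in methionine-free medium and 237, 262, 306 and 316 in supernatant. Methionine-free medium lay between the other media, without overlap.

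**Figure D4:**
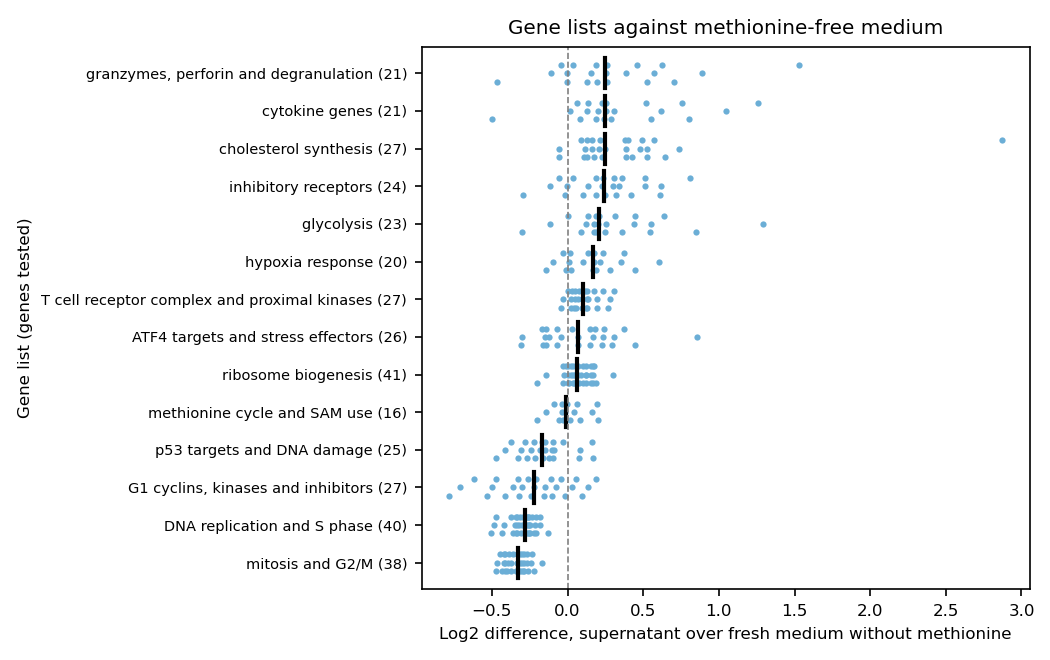
Log2 difference, supernatant over methionine-free fresh medium (horizontal axis), of the tested members of 14 gene lists (1 row each, small points) with the median of each list (bar); the dashed line marks no difference. All points of the mitosis (-0.33) and replication lists (-0.28) lie below 0, and the medians of glycolysis (0.21), cholesterol synthesis (0.25) and cytokine genes (0.25) above it.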

How the data were processed

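RNA of 16 libraries was sequenced. The submitters' processing notes name Cuffdiff 2.2.1 and Cufflinks, TopHat2 2.0.13, Bowtie2 2.2.1 and FastQC 0.11.3, and the builds mm10 and GRCm38; the counter, annotation and strand are not given in the sources used here, so overlapping, antisense and closely related genes may share reads. The authors deposited a table of depth-normalized counts (a signal: whole reads of a gene divided by 1 factor per library) and a table of FPKM values, fragments scaled by transcript length and depth. Dividing each library by the worth of 1 read, found from its lowest values, returned whole reads for 100% of values within 0.001 reads, and these gave the depths; methods that need counts used them, without replicate 1 of methionine-free medium, in which the worth of 1 read was too near 1 to be told from rounding. Reads of any 2 libraries of 1 medium differed by more than sampling noise (chi-square per gene 2.66 to 7.69), so none was a duplicate. The FPKM table served as an alternative only.

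Genes whose mean over the 8 libraries reached 10 (12472 of 17159) were fitted as log2(value + 1) in R 4.3.3 by limma 3.58.1, its variance following the mean (trend), 1 mean per medium and Benjamini-Hochberg adjustment; methionine-free medium was compared in a fit of all 16 libraries. The procedure was tested on simulated data. Alternatives were pseudocounts of 0.1 and 8, no filter and a mean of 100, the other number of libraries in the fit, total-read, TMM and quantile scaling, edgeR 4.0.16 and DESeq2 1.42.0 on recovered reads, the FPKM values, a replicate block and leaving out each library.

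The libraries and the 68 gene lists were chosen with earlier results of these data known. Named genes are, of called genes with an annotated name, 100 reads or more on average and separate media, the 15 highest and 15 lowest fold changes and the 10 largest gains and losses in reads; the 2 highest and 2 lowest called members of each list; the 8 highest and lowest against methionine-free medium; 19 fixed genes; and the 5 highest of those under 10 reads in 1 medium and at 50 or more in the other. Of the genes so chosen, not all are reported here. Chosen after their values were seen were 46 further genes: Atf3, B2m, Bax, Bbc3, Btg1, Cd274, Cd28, Cd3e, Cd4, Cd8a, Cd8b1, Cdk1, Csf2, Ctla4, Egln3, Egr2, Ezh2, Fasn, Hk2, Il2rg, Isg15, Lag3, Lck, Mars, Mcl1, Mdm2, Mettl16, Mki67, Nfkbia, Nupr1, Pcna, Pmaip1, Sesn1, Slc16a3, Slc2a3, Slc3a2, Slc7a5, Socs1, Sqle, Srebf2, Tbx21, Top2a, Trib3, Tyms, Vegfa and Zbtb7b. Promoter windows came from RefSeq (GRCm38.p6), with 32851 windows and 8906 tested genes matched by symbol.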

Additional observations from a re-analysis of the deposited data

Results flagged for a closer look

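For each gene named, the highest and the lowest of the 4 libraries of each medium were set against the others, and a library was singled out where its gap to the nearest other took up more of the range of its group than Dixon's 95% critical value for 4 samples allows. Chance singles out about 1 group in 20, or about 35 of the 702 groups, and 39 were singled out, 23 in supernatant and 16 in complete fresh medium. Supernatant replicate 1 accounted for 10 of them and complete fresh medium replicate 3 for 10; no cause was tested.

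In supernatant replicate 0, reads that stood apart were 4175 for Atf3 (others 3769 to 3834), 31382 for Bhlhe40 (others 29054 to 29329), 14174 for Cd2 (others 13537 to 13619), 668 for Ldhb (others 542 to 549) and 966 for Slc43a2 (others 1048 to 1057). In supernatant replicate 1, reads that stood apart were 1956 for Ccng2 (others 2125 to 2141), 3613 for Dars (others 3782 to 3805), 8285 for Ero1l (others 8924 to 8985), 79602 for H2-D1 (others 74372 to 75103) and 155 for Lair1 (others 116 to 122). The same library also gave 58.6 for Mx2 (others 71.5 to 72.4), 68 for Rora (others 52.1 to 53.6), 508 for Slc4a4 (others 593 to 602), 27365 for Top2a (others 29342 to 29687) and 25.8 for Wipi1 (others 16.7 to 18.2). In supernatant replicate 2, reads that stood apart were 568 for Maf (others 506 to 515), 68.4 for Mitf (others 48.1 to 51.1) and 2102 for Pmaip1 (others 1933 to 1954). In supernatant replicate 3, reads that stood apart were 6078 for Dlst (others 6309 to 6340.1), 4455 for Impdh2 (others 4555 to 4562), 1046 for Prf1 (others 1159.8 to 1166), 41409.6 for Tubb4b (others 43062 to 43180.3) and 654 for Zeb2 (others 617 to 620).

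In complete fresh medium replicate 1, reads that stood apart were 151 for Cd4 (others 192 to 193) and 31 for Xlr3b (others 26.8 to 27). In complete fresh medium replicate 2, reads that stood apart were 276 for Cd244 (others 308 to 310.1), 31853 for Eif4g2 (others 32198 to 32246), 324 for Gzmc (others 294 to 295) and 2105 for Tyms (others 2306 to 2329.9). In complete fresh medium replicate 3, reads that stood apart were 257 for Atf5 (others 274 to 275), 14667 for Ccng1 (others 13523 to 13573), 3.48 for Cd14 (others 5.4 to 5.64), 503 for Gpam (others 577 to 591) and 7638 for Gpx4 (others 8288 to 8388). The same library also gave 68.8 for Isg15 (others 42.3 to 46.8), 0.871 for Ndn (others 0), 1806 for Plcxd1 (others 2012 to 2050.4), 4332 for Uhrf2 (others 3842 to 3910.3) and 288 for Zeb2 (others 247 to 252).

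Of the genes singled out, Cd4, Prf1 and Tyms had overlapping reads in the 2 media and were not called; in the others the media did not overlap even with the library that stood apart.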

How the results depend on the processing

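Against complete fresh medium, 10594 (TMM), 10565 (edgeR on the recovered whole reads) and 10499 (DESeq2) of the 10611 calls kept their direction and call. With total-read scaling 9766 did and 16 were called the other way, and the share of calls that were higher moved from 50.1% to 58.1%; with quantile normalization 48 were called the other way. The log2(FPKM + 0.1) values gave 2664 higher and 3486 lower genes, 1163 of them at least 2-fold higher (1173 with the replicate block), and genes averaging 100 reads or more gave 1162 at least 2-fold higher, among fewer genes tested. Leaving out 1 library gave 5210 to 5306 higher, 5197 to 5263 lower, 1755 to 1778 at least 2-fold higher and 1669 to 1689 at least 2-fold lower. The replicate numbers did not pair the depth-normalized libraries: same-numbered libraries of the media had correlated deviations of -0.03 to 0.05, and 2 of 8 libraries were closest to their own number. With the number as a replicate block 5357 genes were higher and 5326 lower, and against methionine-free medium 1719 and 1572. Among FPKM columns the same correlations were 0.14 to 0.29, and 5 of 8 were closest to their own number.

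Against methionine-free medium, the FPKM values gave 23 higher and 9 lower genes (71.9% higher, against 52.2% in the depth-normalized reads), 8 and 0 at least 2-fold by limma, where 834 genes had an unadjusted p under 0.05, and 635, 810, 11 and 4 with the replicate block. At least 2-fold higher and lower counts were 11 and 1 with a pseudocount of 8, 78 and 87 with no filter, and 11 and 0 with a minimum mean of 100 reads in limma; the lower count was 21 with quantile normalization and 6 with DESeq2. Leaving out 1 library gave 1490 to 1645 higher, 1350 to 1548 lower, 26 to 38 at least 2-fold higher and 7 to 18 at least 2-fold lower, the lowest of these without replicate 3 of methionine-free medium. The cause of these differences was not tested.

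Some named genes changed the sign of their log2 difference from complete fresh medium or came to 0. With total-read scaling, the sign turned for Cd4 (0.06), Ctla4 (0.14), Gzmb (0.03) and Prf1 (0.08). With quantile normalization, the sign turned for Ctla4 (0.24), Eef1a1 (0.00), Gzmb (0.42), Mki67 (0.24) and Tyms (-0.02). With edgeR on recovered reads, the sign turned for Ctla4 (0.00). In the FPKM values, the replicate block included, the sign turned for Ctla4 (0.02), Dot1l (-0.07) and Tyms (-0.01). Without 1 library, Ctla4 ran from -0.04 to 0.02. Without 1 library, Tyms ran from -0.01 to 0.04. Against methionine-free medium, where Mat2a, Slc43a2, Stat5b and Tcf7 were not called, their signs turned as well. With quantile normalization, the sign turned for Mat2a (-0.03) and Slc43a2 (-0.01). In the FPKM values, the replicate block included, the sign turned for Mat2a (-0.01), Stat5b (0.02) and Tcf7 (0.00). With total-read scaling, the sign turned for Slc43a2 (-0.01). Without 1 library, Slc43a2 ran from -0.01 to 0.04. Without 1 library, Stat5b ran from -0.02 to 0.00.

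Medians of gene lists that lay near 0 changed sign too. With total-read scaling, the sign turned for transsulfuration and glutathione (0.03), metal handling (0.07), translation initiation and elongation (0.05), autophagy and lysosome (0.12), granzymes, perforin and degranulation (0.01), common gamma chain and related cytokine receptors (0.13), cAMP and G protein regulators (0.07) and glucocorticoid response (0.04). In the FPKM values, the replicate block included, the sign turned for aminoacyl-tRNA synthetases (-0.04), endoplasmic reticulum folding and UPR (-0.02), mTOR complexes and amino acid sensing (-0.10), DNA methylation writers and erasers (-0.16), JAK, STAT and IL-2 response (-0.05), effector factors (-0.19) and TGF-beta response (-0.06). With quantile normalization, the sign turned for endoplasmic reticulum folding and UPR (-0.04), common gamma chain and related cytokine receptors (0.09) and cAMP and G protein regulators (0.03). Among genes averaging 100 reads or more, the sign turned for effector factors (-0.05). Without complete fresh medium replicate 3, the median of DNA methylation writers and erasers was 0.00. Of all alternative values of named genes against complete fresh medium, leave-one-out apart, 4409 kept direction and call, 47 kept the direction and lost the call, most of them in the FPKM values, and 4 gained one. Selenbp1, called lower than in methionine-free medium, was not called there with edgeR (-0.60) or DESeq2 (-0.59). In the FPKM values without the replicate block, the calls against methionine-free medium were lost for Mki67, Ifng, Prf1, Pdcd1, Gzmb, Klre1, Bbc3 and Phlda3. They were also lost there for Plcd1, Hic1, Nphp4, Pltp, Prx, Zfp750 and Selenbp1, each in the same direction. With the replicate block those of Bbc3, Nphp4, Phlda3 and Pltp were lost as well.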

Other observations

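Per length, in FPKM (mean ± SD, n = 4), Gzmb had 2671 ± 177 in complete fresh medium and 2422 ± 149 in supernatant. Levels of Gapdh were 3037 ± 549.6 in complete fresh medium and 603 ± 90.2 in supernatant. Lta reached 26.6 ± 3.85 in complete fresh medium and 525 ± 135 in supernatant, and Mat2a 67.1 ± 7.11 in complete fresh medium and 365 ± 55.9 in supernatant. Ifng stayed lower, at 2.02 ± 0.261 in complete fresh medium and 41.6 ± 8.04 in supernatant, as did Tnf, at 11.5 ± 0.811 in complete fresh medium and 57.1 ± 10.8 in supernatant. Cd3e had 244 ± 19.5 in complete fresh medium and 132 ± 10.8 in supernatant, and Pmel 2.08 ± 0.269 in complete fresh medium and 2.48 ± 0.42 in supernatant.

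The 2 deposited tables were also set against each other library by library, over 10228 genes, as a description. In complete fresh medium each library's deviations from its group mean resembled most those of the FPKM column with its own number (Pearson's r across genes 0.28 to 0.67). In supernatant the values for the own number were 0.19, 0.07, -0.07 and 0.19 for replicates 0 to 3, and replicates 1 and 2 resembled more the FPKM columns numbered 2 (0.28) and 3 (0.17). Group means and tests without the replicate block do not use this numbering.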
